A study of Mus musculus with 10 samples.

Results

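The 9 genes described here encode cyclic nucleotide phosphodiesterases, and they were taken by symbol (Pde1c, Pde3b, Pde4a, Pde4b, Pde4d, Pde7a, Pde7b, Pde8a and Pde10a) from the 15899 genes of a RIP-seq matrix. They are 9 of 19 cyclic nucleotide phosphodiesterase subunit genes found in the matrix, and the family was selected on differences between tagged and untagged libraries that were already known for some of its genes. That difference is therefore given as a description with its standard error, and the number of these genes past the threshold used for the whole matrix is no evidence about them. RNA was recovered with an anti-FLAG antibody from neurospheres, which are floating cultures of neural stem cells and their progeny grown in EGF and FGF from the subependymal zone (SEZ) of 10 week old mice.

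FLAG cultures were homozygous Mex3aFLAG/FLAG knock-ins, in which the endogenous RNA-binding protein MEX3A ends in a triple FLAG tag under its own promoter. WT cultures (Mex3a+/+) carried no tag, so their libraries hold the RNA that the antibody and beads retain nonspecifically. Immunoprecipitation followed formaldehyde crosslinking in 2 FLAG and 2 WT libraries, and native lysis without crosslinking in 3 FLAG and 3 WT libraries. The study names these as biological replicates of cultures. The sources do not tie the libraries of both protocols to separate cultures, so p-values over all 10 libraries may count a culture more than once. Input RNA was not analysed here, so RNA bound to MEX3A and RNA that is more or less abundant in a culture cannot be told apart. In bulk RNA, fewer cells of a type and less RNA per cell cannot be told apart either.

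Cyclic nucleotide phosphodiesterases hydrolyse the second messengers cAMP and cGMP to the inactive monophosphates, and so end or confine signals that adenylyl and guanylyl cyclases start. The families differ in substrate and control. PDE1 enzymes are activated by calcium and calmodulin and split both messengers, PDE3 enzymes split cAMP and are inhibited by cGMP, and PDE10A acts on both. PDE4, PDE7 and PDE8 enzymes prefer cAMP, and PDE4 isoforms are placed in the cell by anchoring proteins and are the targets of rolipram. In neural cells cAMP acts through protein kinase A, the exchange factors of the Epac type and the transcription factor CREB.

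All 9 genes have a match to the MEX-3 recognition element in the longest annotated 3' UTR of a coding transcript. This element, defined for the nematode MEX-3 protein, has a pair of short parts separated by 0 to 8 bases. The first match after the stop codon is shown for each gene because it is the kind of site through which a MEX-3 type protein could meet these mRNAs. Capitals mark the matched letters, and the letters run 5' to 3' on the transcript strand of the mouse genome GRCm38.
Pde1c (chr6:56105954-56105978, minus strand): gagagaTGAGATTCATTTAaatgag
Pde3b (chr7:114536980-114537000, plus strand): aatgaaGGAGCTTTAttcttt
Pde10a (chr17:8982898-8982924, plus strand): ggagcaGGAGAAGATACTTTAagatga
Pde4a (chr9:21211801-21211824, plus strand): ccatacGGAGGGAGTCTAcaaccc
Pde4b (chr4:102605774-102605793, plus strand): atatctAGAGTTTAgtacca
Pde4d (chr13:109951963-109951990, plus strand): ttttttGTAGAGCTTACTTTTAttatta
Pde7a (chr3:19226983-19227010, minus strand): gtgcctGGAGACTGAGCATTTAtttacc
Pde7b (chr10:20400083-20400105, minus strand): aagtccAGAGCATTTTAacgttt
Pde8a (chr7:81334204-81334224, plus strand): ctgtcaGGAGTTTTAcaggtg

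A match is common. Among 12108 protein-coding genes of the matrix with a 3' UTR, 77.2% hold at least 1, and long 3' UTRs nearly always do. The 9 genes had a median of 2.97 matches per kb of 3' UTR, against 2.24 over all those genes. With the last pair of bases of the element written AT in place of TA, the medians were 2.87 and 2.09. The density ranged from 4.33 matches per kb in Pde3b, 4.25 in Pde4d and 4.14 in Pde7b down to 1.8 in Pde10a, 1.58 in Pde4a and 1.56 in Pde4b. Pde1c (3.28), Pde8a (2.97) and Pde7a (2.87) lay between them. For genes with a 3' UTR within 20% of the same length, the median was 2.62 matches per kb beside Pde4d, 2.96 beside Pde1c and 2.54 beside Pde4b. These counts are descriptions of letters and not of binding.

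The gene bodies are long. Pde4d spans 1503.5 kb of chromosome 13 (chr13:108449948-109953461) with 12006 bases of merged exons, so 0.799% of its body is exonic. Pde1c spans 499.3 kb (chr6:56069804-56569103) and is 4.02% exonic, Pde4b spans 519.7 kb (2.03%) and Pde10a 461.3 kb (2.79%). Pde7b spans 327.1 kb (3.8%), Pde8a 120.9 kb (3.34%) and Pde3b 124.0 kb (7.35%). Pde7a (88.2 kb, 8.78%) and Pde4a (47.5 kb, 16.1%) are the most compact of the set. Long genes had high values in this matrix, with a Spearman rho of 0.627 between the WT level and the length of the gene body over 12276 protein-coding genes and of 0.733 over the 9 genes, both across genes and without a test. Levels of different genes are compared below per kb of exons, which does not remove this relation. The WT level per kb of exons still had a rho with the length of the gene body of 0.43 over the protein-coding genes and 0.617 over the 9.

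The deposited values are log2 of a normalized level per gene with nearly the same distribution in each library, and the depth of the libraries is unknown. Each level below is such a log2 value, and each difference is the FLAG mean minus the WT mean on that scale. FLAG native replicates 1 and 3 had 329 and 178 genes tied at their lowest value, against at most 3 in the other libraries. Mex3a itself, whose mRNA carries the tag in FLAG cultures, was at 3.92 and 4.16 in crosslinked FLAG libraries, at 5.95, 4.03 and 6.1 in native FLAG libraries and between 2.75 and 3.52 in WT libraries. FLAG native replicate 2 thus stood apart from the other native FLAG libraries and near the crosslinked ones. Of the neural stem and astroglial markers, 8 of 9 were in the matrix with a summed level of 10.99 to 11.49 in FLAG and 10.95 to 11.43 in WT libraries, and Gfap was not in the table used here. Such a sum is carried by the most abundant genes. The median FLAG over WT difference of these 8 genes over all libraries was 0.88, with 6 above 0 and none called. Sox2 and Sox9 of this list are among the transcripts the paper names as MEX3A-bound, so these markers do not measure cell content alone. A gene was called where limma's moderated test gave an adjusted p under 0.05 (by the Benjamini-Hochberg method, over the whole matrix) with a change past 0.58 on the log2 scale.

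Per kb of annotated exons, Pde10a, the dual-substrate enzyme known best from striatal neurons, had the highest WT level of the 9 (5.65 ± 0.12, SD, n = 5). Pde4d (4.82 ± 0.48) and Pde4b (4.74 ± 0.38) followed and had overlapping ranges of 4.04 to 5.27 and 4.41 to 5.4. Pde7b (4.12 ± 0.28) overlapped both. Pde7a (3.23 ± 0.14) lay below all of these without overlap, and Pde3b (2.1 ± 0.16) below Pde7a. Pde3b overlapped Pde8a (1.68 ± 0.24), and Pde8a overlapped Pde1c (1.4 ± 0.35). Pde4a was lowest at -3.01 ± 0.6. In FLAG libraries the order differed in the place of Pde4d (3.44 ± 0.27, n = 5), which lay below Pde4b (4.96 ± 0.25) without overlap and below Pde7b (4.01 ± 0.33) with a small overlap. Pde1c (-0.12 ± 0.58) and Pde8a (1.23 ± 0.08), which overlapped in WT, stood apart in FLAG.

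**Figure D1:**
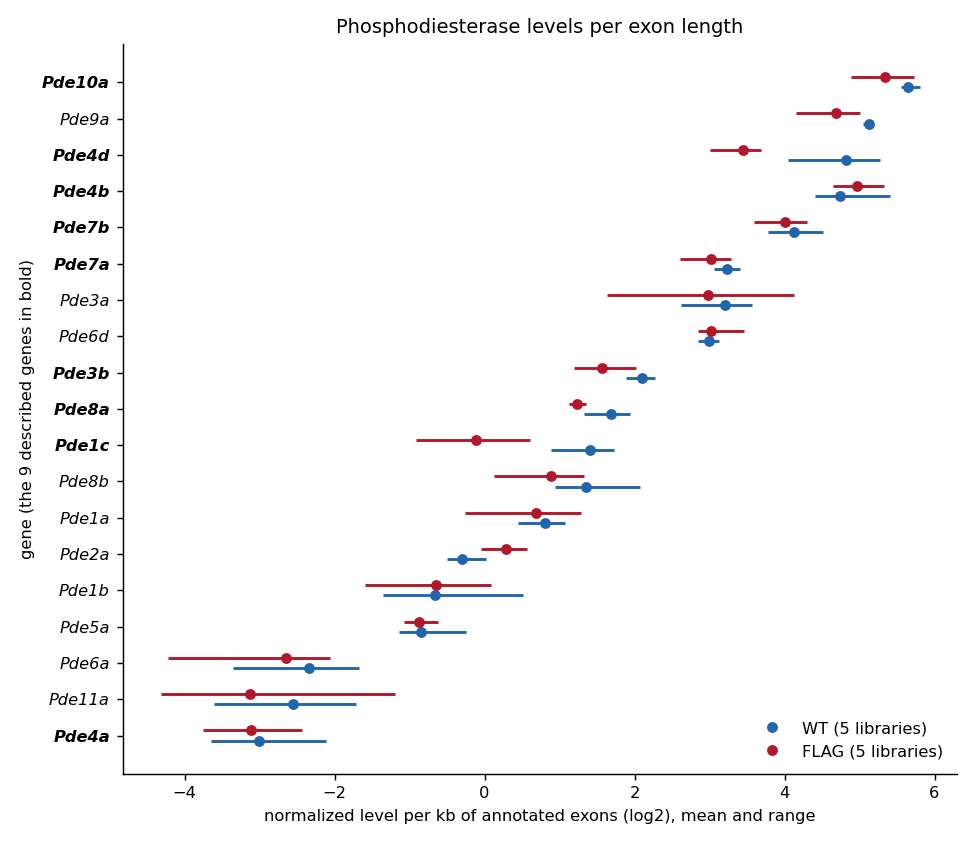
Normalized level per kb of annotated exons (log2, horizontal axis) for the 19 phosphodiesterase genes of the matrix, ordered by the WT mean, with points for the mean and lines for the range of 5 WT and 5 FLAG libraries of both protocols. Pde4d and Pde1c are the described genes (bold) whose FLAG and WT ranges stand furthest apart, and Pde10a has the highest and Pde4a the lowest WT mean.

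Among the dual-substrate and cGMP-regulated enzymes, Pde1c was lower in FLAG than in WT libraries. Its level was 4.94 and 3.4 in the crosslinked FLAG libraries against 5.87 and 5.21 in the crosslinked WT libraries. In native conditions it was 4.07, 4.08 and 4.55 in FLAG against 5.96, 5.55 and 6.06 in WT. Every FLAG library lay below every WT library in both protocols, and FLAG crosslinked replicate 2 was the lowest of all. The difference was -1.37 (SE 0.59, n = 2 and 2) in crosslinked, -1.62 (SE 0.22, n = 3 and 3) in native and -1.52 (SE 0.27) over all libraries, the last a 2.87-fold lower level. The crosslinked value was -0.6 without FLAG crosslinked replicate 2 and -2.14 without FLAG crosslinked replicate 1. Of all genes, 0.484% had a lower difference over all libraries than Pde1c.

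Pde3b, the cGMP-inhibited enzyme of insulin and lipid signalling, showed a smaller difference. Native FLAG libraries gave 4.52, 4.81 and 4.38 against 5.43, 5.08 and 5.46 in WT, with no overlap. Crosslinked FLAG libraries gave 5.21 and 4.8 against 5.27 and 5.2, and overlapped. The differences were -0.75 (SE 0.2) in native and -0.23 (SE 0.16) in crosslinked libraries, the latter -0.03 without FLAG crosslinked replicate 2 and -0.43 without FLAG crosslinked replicate 1. The long noncoding gene 4933406I18Rik lies 120 bases from Pde3b on the opposite strand, and its difference over all libraries was -1.22 (SE 0.31), which was not called (adjusted p = 0.101, limma).

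Pde10a differed less. Its crosslinked levels were 9.08 and 9.26 in FLAG against 9.26 and 9.49 in WT. Native FLAG libraries spread from 8.56 to 9.4 around WT libraries at 9.25, 9.23 and 9.45. Replicates of the groups overlapped in both protocols, and the difference over all libraries was -0.31 (SE 0.15). It ran from -0.43 to -0.2 with single libraries left out.

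The PDE4 subfamily, which is cAMP-specific, did not move as a unit. Pde4d, the largest of the genes, was lower in FLAG in both protocols. Crosslinked FLAG libraries had 7.17 and 7.14 against 8.61 and 7.63 in WT. Native FLAG libraries had 6.59, 7.28 and 6.94 against 8.63, 8.31 and 8.86 in WT. As for Pde1c, no FLAG library reached a WT library of its protocol, and WT crosslinked replicate 2 was the WT library nearest to FLAG for both genes. The difference was -0.96 (SE 0.35) in crosslinked, -1.66 (SE 0.22) in native and -1.38 (SE 0.22) over all libraries, a 2.61-fold lower level. Without WT crosslinked replicate 2 the crosslinked difference of Pde4d was -1.45, and without WT crosslinked replicate 1 it was -0.47.

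Pde4b, the PDE4 member best known from inflammatory and neuronal cAMP control, was not lower. It had 8.72 and 8.32 in crosslinked FLAG libraries against 7.81 and 8.8 in WT. In native conditions it had 8.29, 8.44 and 8.04 in FLAG against 8.0, 8.09 and 7.99 in WT. The groups overlapped, and the differences were 0.22 (SE 0.38) with crosslinking and 0.23 (SE 0.16) without. The crosslinked difference turned with a single library, to 0.71 without WT crosslinked replicate 2 and -0.28 without WT crosslinked replicate 1. Pde4a was near the bottom of the scale in all libraries, between -0.82 and 0.83. Its differences were -0.55 (SE 0.32) in crosslinked and 0.21 (SE 0.57) in native libraries. The crosslinked value was -0.24 with a pseudocount of 1, and -0.27 and -0.83 without FLAG crosslinked replicate 1 and 2. The native value was 0.69 without WT native replicate 1 and -0.09 without WT native replicate 3, so neither has a settled size.

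Of the cAMP-specific, rolipram-insensitive enzymes, Pde7a had 6.24 and 6.17 in crosslinked FLAG against 6.36 and 6.22 in WT libraries. Its native levels were 5.85, 6.05 and 5.55 against 6.25, 6.09 and 6.02. Pde7b had 7.93 and 7.78 against 7.42 and 8.15 with crosslinking, and 7.23, 7.94 and 7.36 against 7.6, 7.7 and 7.93 without. For both genes the groups overlapped in each protocol, with differences over all libraries of -0.22 (SE 0.12) and -0.11 (SE 0.18). With single libraries left out these ran from -0.27 to -0.13 and from -0.25 to -0.02. Pde8a, the high-affinity cAMP enzyme, had a small difference. It had 3.25 and 3.37 against 3.6 and 3.75 with crosslinking, and 3.15, 3.27 and 3.21 against 3.81, 3.34 and 3.96 without, with no overlap in either protocol. The difference over all libraries was -0.44 (SE 0.14), a 1.36-fold lower level, and Pde8a was not called in any comparison.

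**Figure D2:**
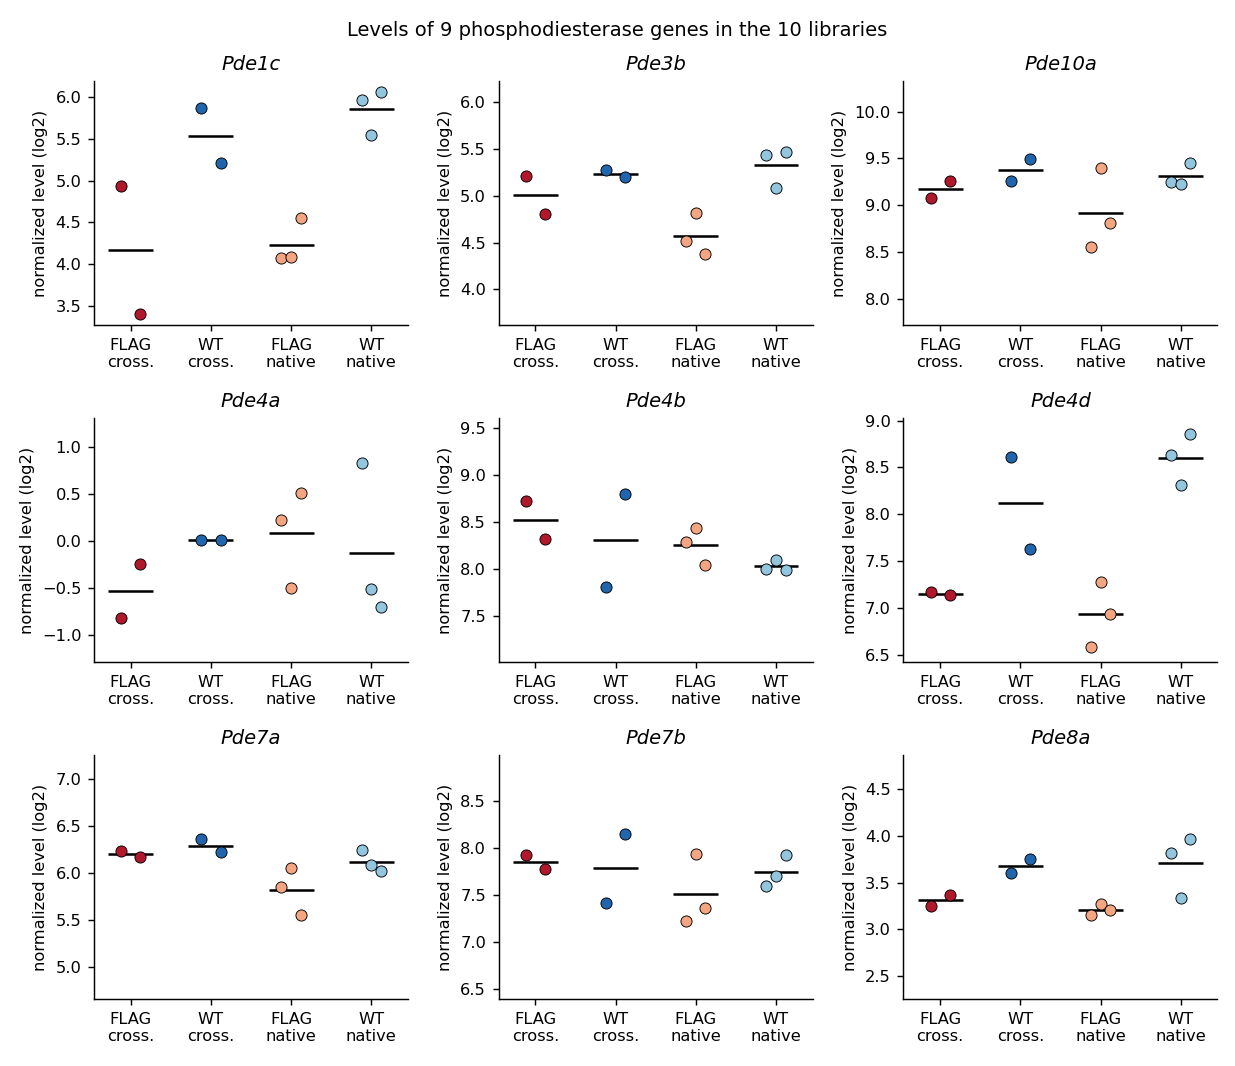
Normalized level (log2, vertical axis; each panel has its own range) of the 9 genes in each library, one point per library, with bars for the group means of 2 crosslinked FLAG, 2 crosslinked WT, 3 native FLAG and 3 native WT libraries. FLAG points lie below all WT points of the same protocol in both protocols for Pde1c, Pde4d and Pde8a.

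In all, the difference was below 0 for 8 of the 9 genes over all libraries, with a median of -0.31, beside a median of -0.03 over all genes and 53.2% of all genes below 0. In native libraries 7 of 9 were below 0, beside 52.6% of all genes, with medians of -0.38 and -0.04. In crosslinked libraries 7 of 9 were below 0, beside 53.7%, with medians of -0.23 and -0.02. FLAG lay wholly below WT for 4 of the 9 with crosslinking (Pde1c, Pde4a, Pde4d and Pde8a), beside 19.9% of all genes. The same held for 4 of the 9 in native conditions (Pde1c, Pde3b, Pde4d and Pde8a), beside 10.8%, and for 3 in both protocols, beside 4.47%. As a description, Pde1c and Pde4d were among the genes past the threshold as lower in native libraries, 0.107% of all genes, and also over all libraries, 0.233% of all genes. With crosslinking limma called none of the 15899 genes, while 1225 (7.7%) had an unadjusted p under 0.05. In simulated data of that design, 0 of 200 genes changed by 2 on the log2 scale were called. The simulation gave a gene the same spread in every library. limma's library weights, higher for less variable libraries, were 1.571 to 2.799 with crosslinking and 0.1889 to 2.067 in native conditions. The simulation therefore cannot say what a count of 0 there means. The genes were chosen with these values known, and nothing is read from the counts.

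Whether Pde1c and Pde4d passed that threshold depended on single libraries. In native libraries the count of 2 fell to 0 without FLAG native replicate 1 or 3 or WT native replicate 1 or 3. It rose to 4 without FLAG native replicate 2. In that fit 1450 of 15899 genes were called higher and 1710 lower, against 0 and 17 with all native libraries. The rise is thus not particular to these genes. Over all libraries the count of 2 fell to 0 without FLAG crosslinked replicate 2, FLAG native replicate 1 or 3, WT crosslinked replicate 1 or any of the WT native replicates. It was also 0 when genotype and replicate number were taken as a random block for a shared culture, with differences of -1.52 for Pde1c and -1.41 for Pde4d. Over the left-out libraries, the difference in all libraries stayed between -1.78 and -1.31 for Pde1c and between -1.6 and -1.25 for Pde4d.

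**Figure D3:**
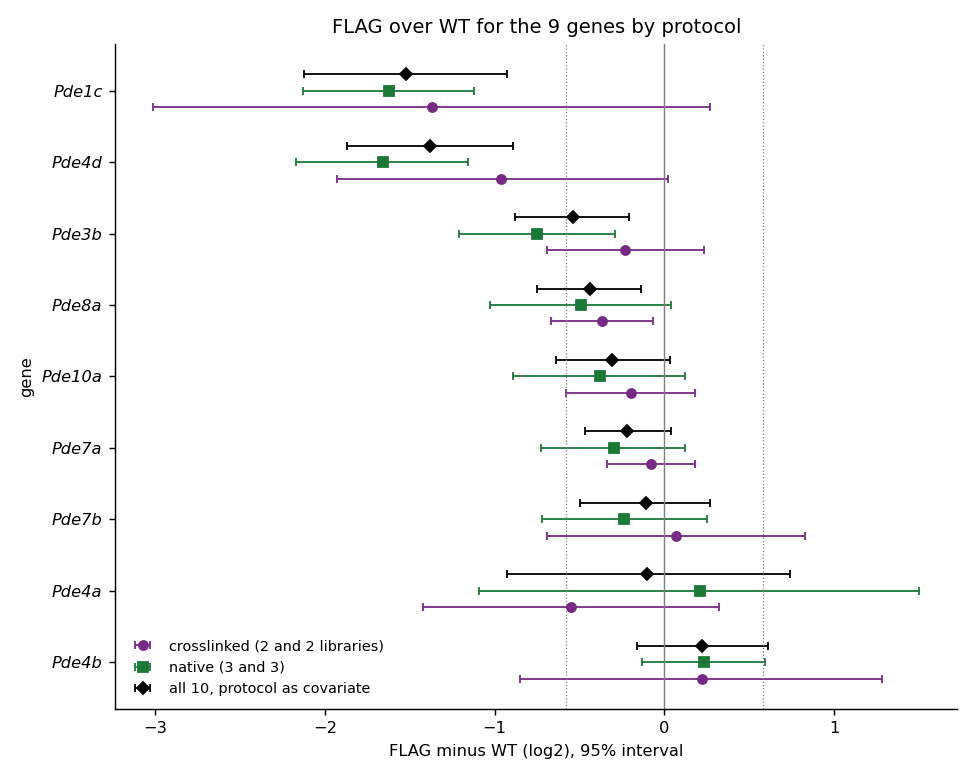
FLAG minus WT (log2, horizontal axis) for each of the 9 genes in crosslinked libraries, native libraries and all 10 libraries, with 95% intervals from limma and dotted lines at -0.58 and 0.58. The native and all-library intervals of Pde1c and Pde4d lie wholly below -0.58, and the crosslinked interval of Pde1c is the widest, from -3.01 to 0.27. The family was selected on this difference, so the intervals are descriptions and no test of these genes.

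Over the matrix, FLAG over WT differences moved with gene structure. Over 12276 protein-coding genes, the exonic share of the gene body and the FLAG over WT difference in all libraries had a Spearman rho of 0.411, across genes and without a test. Among the 9 genes alone the rho was 0.133. When the genes were ranked by exonic share and divided into 4 groups of 3069, the group with the lowest share had 0.0363% to 8.29% of the body in exons. Its median difference was -0.19 over all libraries and -0.28 in native libraries, and 72.9% and 74.8% of its genes were below 0. In the group with the highest share the medians were 0.26 and 0.37. Of the 9 genes, 7 lie in the lowest group and 2 (Pde7a and Pde4a) in the next. In the lowest group 0.815% of genes were called lower over all libraries. When each library's trend on exonic share was removed, an alternative chosen after seeing the data, the difference over all libraries was -1.31 for Pde1c, -1.15 for Pde4d, -0.41 for Pde3b, -0.21 for Pde8a and -0.08 for Pde10a. Pde4b was then at 0.45, and Pde4d alone of the 9 was called. The family was selected on this same difference, so nothing is read from that call.

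**Figure D4:**
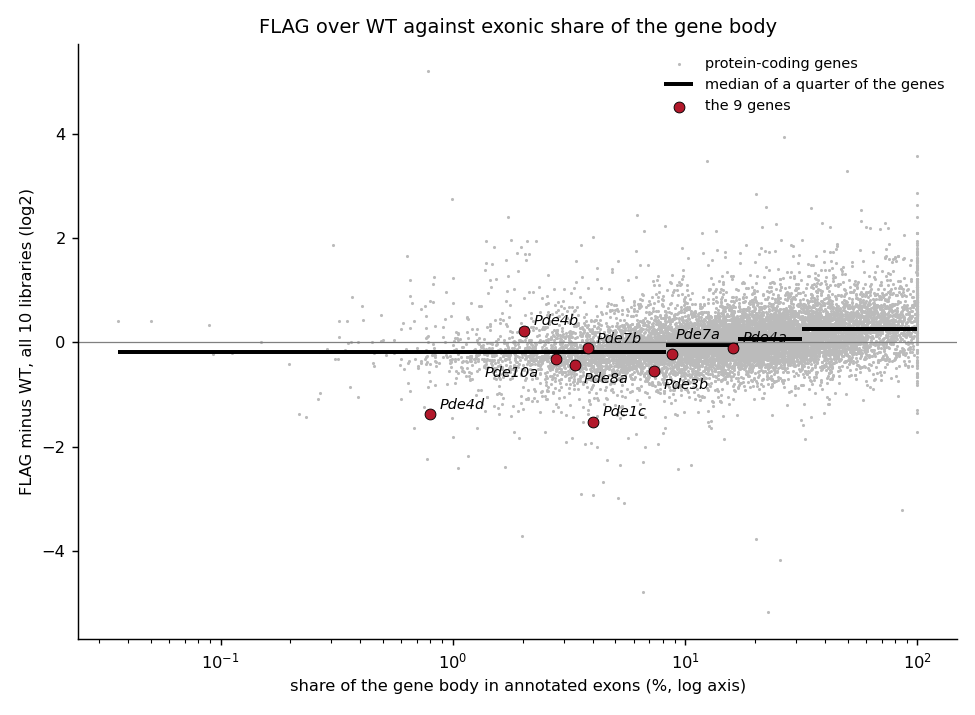
FLAG minus WT over all 10 libraries (log2, vertical axis) against the share of the gene body in annotated exons (percent, log axis) for 12276 protein-coding genes, with black bars at the median of each of 4 equal groups of genes and the 9 phosphodiesterase genes in red. The medians go from -0.19 in the group with the lowest share to 0.26 in that with the highest, and Pde4d and Pde1c lie well below the bar of their group.

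Of the markers of other cell types, Rbfox3 alone was called over all libraries. Of the neuroblast and neuron markers, 2 of 4 were in the matrix (Rbfox3 and Snap25), and Dcx and Tubb3 were not in the table used here. Their summed level was 3.16 to 4.05 in FLAG and 4.59 to 4.96 in WT libraries, and Rbfox3 was lower in FLAG over all libraries by limma (-1.31, SE 0.17, adjusted p = 0.0127). Its adjusted p was 0.0243 with the culture as a random block and 0.0503, no longer a call, without WT native replicate 1. Snap25 was not called (-0.64, SE 0.32, adjusted p = 0.27), and its groups overlapped, with 0.25 to 1.74 in FLAG and 1.12 to 1.89 in WT libraries. The progenitor markers (2 of 4 in the matrix) summed to 6.39 to 7.93 in FLAG and 6.6 to 7.23 in WT, and had a median difference of 1.12 over all libraries with both above 0 and none called. Of the endothelial and mural markers only Pecam1 was in the matrix, at -0.49 to 0.28 in FLAG and 0.46 to 0.62 in WT. The oligodendrocyte lineage list (3 of 5 in the matrix) had ranges of 6.17 to 7.48 and 5.75 to 6.41. The part of these markers, and of the stem cell and astroglial ones, in the lower levels of Pde1c and Pde4d was not tested.

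Genes that share the locus did not follow in a single way. Within 500 kb of Pde4d, 7 other genes had a median difference of -0.03 over all libraries, from -0.42 to 1.4, and the 6 around Pde1c had a median of 0.03, from -1.08 to 0.39. None of these 13 was called, beside 42 genes higher and 37 lower of all 15899 over all libraries. The antisense gene Gm16093 within Pde7a had a Pearson r of 0.947 with Pde7a over 10 libraries, after removal of the protocol means, and Gm15425 within Pde10a had 0.923 with Pde10a. The kit marks strand, but whether the counting used it is not given in the sources used here, so reads of these partners may not be separated from those of the phosphodiesterase gene.

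The effect of the protocol itself was tested on the 9 genes. It compares protocols and not genotypes, but it draws on the same libraries as the FLAG over WT difference by which the family was selected. With crosslinking over native lysis in WT libraries, limma called none of the 9, beside 0.333% of all genes. The changes ran from -0.48 in Pde4d (95% interval -1.14 to 0.18, adjusted p = 0.805) to 0.28 in Pde4b (-0.31 to 0.86). Without WT crosslinked replicate 2 these became 0.01 and -0.22, and without WT crosslinked replicate 1 they were -0.97 and 0.77. In WT libraries 0 of 9 had an unadjusted p under 0.05, beside 7.48% of all genes. In FLAG libraries none was called either, beside 0.44% of all genes, and 1 had an unadjusted p under 0.05, beside 15.4%. That was Pde7a, at 0.39 (0.01 to 0.77, adjusted p = 0.317). Pde3b was at 0.44 (-0.01 to 0.89) and Pde4a at -0.61 (-1.85 to 0.62). With single libraries left out these ran from 0.23 to 0.64 and from -0.9 to -0.33. The median of the 9 was 0.25 in FLAG libraries, beside 0.11 over all genes, and 0.04 in WT libraries, beside 0.02. None of the 9 was called with the replicate number as a block or with the culture as a random block.

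The difference between protocols in FLAG over WT was not resolved for any of the 9 genes. The FLAG over WT difference of Pde4d was 0.71 higher with crosslinking than without (95% interval -0.23 to 1.64, adjusted p = 0.97 by limma), with a range of 0.22 to 1.19 as single libraries were left out. The lowest of these came without WT crosslinked replicate 2 and the highest without WT crosslinked replicate 1. That of Pde3b was 0.52 higher (-0.11 to 1.16) and that of Pde1c 0.25 higher (-1.02 to 1.53). The value of Pde3b ran from 0.32 to 0.73 with single libraries left out. Pde4a had the lowest value, -0.75 (-2.5 to 0.99), and ran from -1.23 to -0.46 with libraries left out. No gene of the matrix was called in this comparison by limma, where 68 genes (0.428%) and 0 of the 9 had an unadjusted p under 0.05, and the intervals of Pde4d and Pde1c allow both equal and clearly unequal pulldown differences.

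Pde4d and Pde1c varied together over the 10 libraries, with a Pearson r of 0.877 after removal of each protocol's mean. Pde4d had an r of 0.888 with Pde3b and 0.826 with Pde8a, and -0.574 with Pde4b. The libraries of a pair of genes share genotype and normalization, so these values describe the libraries. Only protocol means were removed, so the FLAG over WT difference by which the family was selected stays in these and the following r values. They are therefore no evidence that the genes vary together apart from genotype. The genes nearest to Pde1c in pattern over the 10 libraries were Gm43809 (r of 0.991), Fam135b (0.98), Mrpl33 (0.972), Gm7173 (0.968) and Trim36 (0.966). Among those nearest to Pde4b, the member with the highest difference, were Cyfip2 (0.956), Add2 (0.953), Rims1 (0.95) and Gm44895 (0.944).

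Among the other 10 phosphodiesterase genes of the matrix none was called in any comparison by limma. Over all libraries 42 genes higher and 37 lower were called of 15899. Of the 10, 2 had an unadjusted p under 0.05 over all libraries by limma, beside 21.1% of all genes. Pde9a, a cGMP-specific enzyme, lay lower in every FLAG library of both protocols, by -0.43 over all libraries (SE 0.15, adjusted p = 0.168). Pde2a, which splits both messengers and is stimulated by cGMP, had the highest value of the family, 0.58 (SE 0.16, adjusted p = 0.118). Its native FLAG libraries all lay above the WT libraries, with means of 3.01 and 2.29. The calmodulin-dependent relatives of Pde1c had values near 0, with 0.01 (SE 0.4) for Pde1b and -0.12 (SE 0.27) for Pde1a. Pde3a was at -0.22 (SE 0.42), Pde8b at -0.46 (SE 0.23), Pde5a at -0.04 (SE 0.17), Pde6a at -0.32 (SE 0.5) and Pde11a at -0.57 (SE 0.56). Pde6d, which encodes a prenyl-binding protein and no hydrolase, was at 0.02 (SE 0.14). The median of these 10 genes was -0.17 over all libraries, beside -0.31 for the 9 and -0.03 for all genes.

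Elsewhere in the pathway limma called no gene of the lists in any of the 6 comparisons. Over all libraries an unadjusted p under 0.05 was reached by 4 of 16 genes of cAMP synthesis and its control by G proteins, 0 of 4 that make cGMP, 5 of 15 effectors, 3 of 19 anchors and 2 of 12 CREB factors, beside 21.1% of all genes. Of the adenylyl cyclases and the stimulatory and inhibitory G protein subunits that control them, 16 of 17 listed were in the matrix, 8 above and 8 below 0 over all libraries with a median of 0.01. Adcy8, the calcium-stimulated adenylyl cyclase, had the lowest value, at 2.74 and 1.96 in crosslinked and 1.53, 1.61 and 2.72 in native FLAG libraries. WT libraries had 3.53 and 2.68, and 3.65, 3.11 and 3.77. The difference over all libraries was -1.24 (SE 0.31, adjusted p = 0.0957 by limma), and FLAG and WT overlapped in the crosslinked libraries. The inhibitory G protein subunits Gnao1 and Gnai2 were at 0.71 (SE 0.47) and 0.61 (SE 0.2). For Gnao1 the crosslinked WT libraries lay far apart, at 2.15 and 5.09. Of the genes that make cGMP, 4 of 17 were in the matrix, with a median of 0.13 and values from -0.09 in Gucy1b3, a soluble cyclase subunit, through Npr1 at 0.23 to Npr2, a natriuretic peptide receptor, at 0.38.

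Of the effectors that read the messengers, 15 of 27 were in the matrix, with 8 above and 7 below 0 and a median of 0.07. Rapgef4, an Epac exchange factor activated by cAMP, was at -1.02 (SE 0.4, adjusted p = 0.198). Prkar1a, a regulatory subunit of protein kinase A, was at 0.76 (SE 0.27, adjusted p = 0.172), and Prkg2, a cGMP-dependent kinase, at 0.62 (SE 0.3). Of the anchors and partners, 19 of 22 were in the matrix with a median of -0.07. Akap2, Akap6 and Akap14 were at 0.57 (SE 0.2), -0.57 (SE 0.46) and -0.5 (SE 0.32). The crosslinked WT libraries lay far apart for Rapgef4 (7.54 and 5.8), Prkg2 (2.3 and 4.19) and Akap6 (7.66 and 5.16). All 12 CREB factors and cofactors were measured, with 10 below 0 and a median of -0.08. Creb1 was the exception with the largest value, 0.77 (SE 0.31, adjusted p = 0.204). Its crosslinked libraries were alike, at 6.28 and 6.36 in FLAG and 6.34 and 6.26 in WT. In native conditions it had 7.91, 6.45 and 7.91 in FLAG against 6.24, 6.09 and 6.16 in WT, so 2 of the 3 FLAG libraries, replicates 1 and 3, stood apart. These are also the 2 libraries with many genes tied at their lowest value. Sik1 and Crtc3, a kinase that restrains CREB coactivators and such a coactivator, were at 0.4 (SE 0.24) and -0.36 (SE 0.14).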

How the data were processed

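RNA from anti-FLAG immunoprecipitation was analysed in 10 libraries, grouped by the genotype and protocol of the labels. The authors trimmed reads with Cutadapt and Trimmomatic, mapped them with HISAT2 to GRCm38, counted them with featureCounts and removed genes with low counts. Libraries were primed with random hexamers. The deposited values are log2 of a normalized level. The methods of the authors name DESeq2 for the normalization and the test, whereas the submitters' processing notes name limma, and which step made the deposited values is not settled. Their distribution is nearly equal in all libraries, as after quantile normalization, so differences in total RNA pulled down are not kept. Whole reads could not be recovered, so no count model was run, depth is unknown and no counting error is given. All value columns of the matrix were used.

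Values were used as deposited, with no pseudocount or filter. limma 3.58.1 (R 4.3.3) was fitted over 15899 genes letting the prior variance follow the mean level, and p-values were adjusted by the Benjamini-Hochberg method. FLAG was compared with WT separately in crosslinked and native libraries, and in all 10 with a term for the protocol. The protocol comparisons came from 1 fit of the 4 groups. The fits were tested on simulated data. The simulation gave a gene the same spread in every library, unlike the real data. In it 143 of 200 genes changed by 2 on the log2 scale were called in native libraries and 172 over all libraries. Members and lists were chosen with earlier results of these data known. Named genes were the 9 members, the other phosphodiesterases, in each pathway list the called genes and the 3 with the largest change over all libraries, and the 5 genes most like the highest and the lowest member, of which 1 is not reported here. Marker lists for microglia, ependymal and erythroid cells were also set. Microglia markers (2 of 4 in the matrix) summed to 4.18 to 4.7 in FLAG and 4.05 to 4.26 in WT, and the ependymal Foxj1 was at 0.51 to 2.83 and 0.01 to 1.77. No erythroid marker was in the table. GENCODE M21 (GRCm38) gave the gene models and 3' UTRs. It holds 15864 of the genes, 14849 of them with the start and end of the matrix, including all 9 members. Sequences came from the RefSeq GRCm38 genome. Python 3.11.15, numpy 2.4.6, pandas 2.3.3, scipy 1.17.1 and matplotlib 3.10.9 were used. Alternatives were a pseudocount of 1, a minimum mean log2 value of 1, trimmed mean scaling, quantile normalization, array weights, robust moderation, the replicate number as a block, 1 fit of 4 groups, each library left out, the other form of the motif and merged 3' UTR exons. The culture as a random block, crossed replicate numbers and removal of the trend on exonic share (20 bins of genes) were added after the data were seen.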

Additional observations from a re-analysis of the deposited data

How the results depend on the processing

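No alternative changed the sign of FLAG over WT for Pde1c, Pde4d, Pde3b, Pde8a, Pde10a or Pde7a over all libraries. With array weights Pde1c went to -2.19 and Pde10a to -0.03. Pde7b, at -0.11, became 0.29 with array weights and 0.1 with the trend on exonic share removed, and Pde4a became at most 0.12 without WT native replicate 1. Calls were less steady. In native libraries the 2 calls became 0 with a minimum mean log2 value of 1, with the replicate block and in 1 fit of 4 groups. They became 1 with trimmed mean scaling and with the trend on exonic share removed, and 3 with array weights. They lay between 0 and 4 when a library was left out. With array weights 1656 genes of the matrix were called higher and 1921 lower. The 4 came without FLAG native replicate 2, where 1450 and 1710 were called. Over all libraries the 2 calls became 1 with the replicate block, 0 with the culture as a random block and 1 with the trend on exonic share removed, and lay between 0 and 2 when a library was left out. The cause was not tested.

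The same replicate numbers did not pair FLAG and WT libraries. Deviations of same-numbered libraries had r of -0.2745 with crosslinking and -0.1493, -0.4302 and -0.1668 in native conditions. Crossing the numbers in the crosslinked libraries gave 0 calls, as did the fit without a block, so it says nothing about pairing. Across protocols, the 4 same-numbered pairs of a genotype had r of 0.178, 0.1543, 0.2999 and 0.3878, so a shared culture remains possible. In WT, the 7 and 46 calls of crosslinked over native became 2 and 0 with the replicate block and 9 and 83 with the culture block. In FLAG, 7 and 63 became 2 and 10, and 21 and 171. Over all genes, the calls over all libraries (42 higher and 37 lower) became 14 and 20 with the replicate block, 7 and 8 with the culture block and 1105 and 964 with array weights, and without single libraries ran from 4 to 516 and from 7 to 219. In native libraries 0 higher and 17 lower became 1656 and 1921 with weighted libraries, 1450 and 1710 when FLAG native replicate 2 was left out, and 1 and 3 in 1 fit of 4 groups. The protocol counts (7 and 46 in WT, 7 and 63 in FLAG) ran from 0 to 439 and 0 to 425, and from 1 to 1204 and 2 to 1444.

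In the protocol comparisons, where none of the 9 genes was called under any alternative, several values changed sign. Crosslinked over native in WT became -0.14 for Pde4a with array weights, and 0.04 with the replicate block and 0.02 with the trend removed for Pde8a. In FLAG it became 0.07 for Pde1c with the replicate block, and with the trend removed -0.01 for Pde4b, -0.05 for Pde4d and -0.14 for Pde8a. The difference between protocols became 0.06 for Pde4b with array weights and, with the trend removed, -0.17 for Pde8a and -0.1 for Pde10a. With libraries left out it ran from -0.51 to 1.02 for Pde1c, -0.5 to 0.48 for Pde4b, -0.06 to 0.67 for Pde7b and -0.01 to 0.3 for Pde8a. The WT protocol value ran from -0.65 to 0.02 for Pde1c, -0.15 to 0.62 for Pde4a, -0.22 to 0.77 for Pde4b, -0.97 to 0.01 for Pde4d, -0.32 to 0.41 for Pde7b, -0.21 to 0.1 for Pde8a and -0.05 to 0.18 for Pde10a, and the FLAG protocol value of Pde1c from -0.83 to 0.71.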
